A study of Mus musculus with 35 samples.

Results

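Embryo-derived 3D EpiSCs and EpiLCs, a pair of mouse cultures used as models of the epiblast, were compared by bulk RNA sequencing. The paper presents 3D EpiSCs as a model of the epiblast in early gastrulation. The embryo-derived 3D EpiSCs (epiblast stem cells) were derived from E5.5 epiblasts and grown inside Matrigel, a basement membrane gel, with the growth factors FGF2 and Activin A, XAV939 and Noggin. XAV939 inhibits tankyrase and thereby Wnt signalling through beta-catenin, and Noggin binds and blocks BMP ligands. The EpiLCs (epiblast-like cells) were ESCs that had been kept as a 2D culture for 48 h with FGF2 and Activin A. The comparison took the 3 libraries labelled embryo-derived 3D and the 3 labelled EpiLC, 6 of the 35 samples of the series and 6 of its 27 bulk RNA libraries. ESC-derived 3D EpiSCs, grown in the same Matrigel culture, and 2D EpiSCs, converted from ESCs with FGF2 and Activin A, completed the 12 in vitro libraries and are given where they help to place a value.

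All 4 groups are labelled wild-type. Per the methods, embryos of a LifeAct-GFP reporter line and of the wild-type CD1 stock were used, and which of them gave the sequenced cells is not given in the sources used here. The number of separate lines or cultures behind the 3 libraries of each group is not given either, so p-values may measure technical spread only. Origin, genetic background, medium, dimension and time in culture all change together between the groups and cannot be told apart. The length of time that the embryo-derived cells had been in culture is not given in the labels.

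Pluripotent cells of the mouse pass from a naive state before implantation, through a formative state that EpiLCs are used to model, to a primed state that EpiSCs are used to model. Around implantation the naive transcription factors are shut off, the de novo DNA methyltransferases are induced and methylation closes the promoters of many germline genes. Primed cells keep Pou5f1 (Oct4) but start to transcribe genes of the primitive streak, where Nodal, Wnt and FGF signals set mesoderm and endoderm apart from ectoderm.

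Expression is given as TPM, a share of transcripts corrected for transcript length that sums to 1000000 in every library, so sequencing depth cannot be read from it. Differences are embryo-derived 3D EpiSC minus EpiLC means of log2(TPM + 1), with the standard error (SE) of the fit and n = 3 libraries in each group, and values of single libraries follow the order of replicates 1, 2 and 3. This scale understates the change of genes at a low level. A gene is called when its adjusted p (limma, Benjamini-Hochberg over all genes tested) is below 0.05 and its difference exceeds 1. Autosomal genes above 2 TPM in at least 3 of the 6 libraries were tested, 12680 in all, of which 11026 are protein-coding.

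Among the embryo-derived libraries, replicate 1 stood apart. Replicates 2 and 3 of the embryo-derived 3D EpiSCs differed by a median of 0.0587 (absolute log2 difference over genes), with 36 genes apart by more than 1, while replicate 1 differed from them by 0.169 and 0.166, with 390 and 398 such genes. EpiLC replicates differed from one another by 0.174 to 0.222. Replicates 2 and 3 were therefore also averaged into 1 value as an alternative. Without embryo-derived replicate 1, 1439 genes were called higher and 1180 lower. From 22215 to 22568 genes were above 0 in embryo-derived libraries and from 24300 to 24438 in EpiLC libraries. Mitochondrial transcripts took 4.69% to 6.52% of TPM in the former and 4.45% to 7.32% in the latter. Replicate 3 of the ESC-derived 3D EpiSCs also stood apart, at 0.281 and 0.257 from replicates 1 and 2, which differed by 0.0674.

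Embryo-derived 3D EpiSCs had 1347 of the 12680 genes higher than EpiLCs (10.6%) and 1204 lower (9.5%). Together 2551 genes were called (20.1%). The libraries of the groups did not overlap for 8045 genes (63.4%), and of the 2551 called genes 2539 did not overlap. The genes that were lower in embryo-derived 3D EpiSCs included more very large differences: 225 fell short of EpiLCs by more than 3 on the log2 scale, and 53 exceeded them by more than 3. All 3 embryo-derived libraries were listed at 0 for 124 of the genes called lower. All 3 EpiLC libraries were listed at 0 for 1 gene called higher. The median difference over all genes tested was 0.09, and rescaling the TPM by median-of-ratios factors shifted it by 0.113, to -0.02, so list medians below are to be read against 0.09. Counts of list members are descriptions, to be read against the 10.6% of all genes called higher and the 9.5% called lower. A member that passed the TPM filter only through the group where it is high, with every library of the other group at or below 2 TPM, had to differ. In bulk libraries a smaller share of cells expressing a gene and less RNA of it per cell cannot be told apart.

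**Figure D1:**
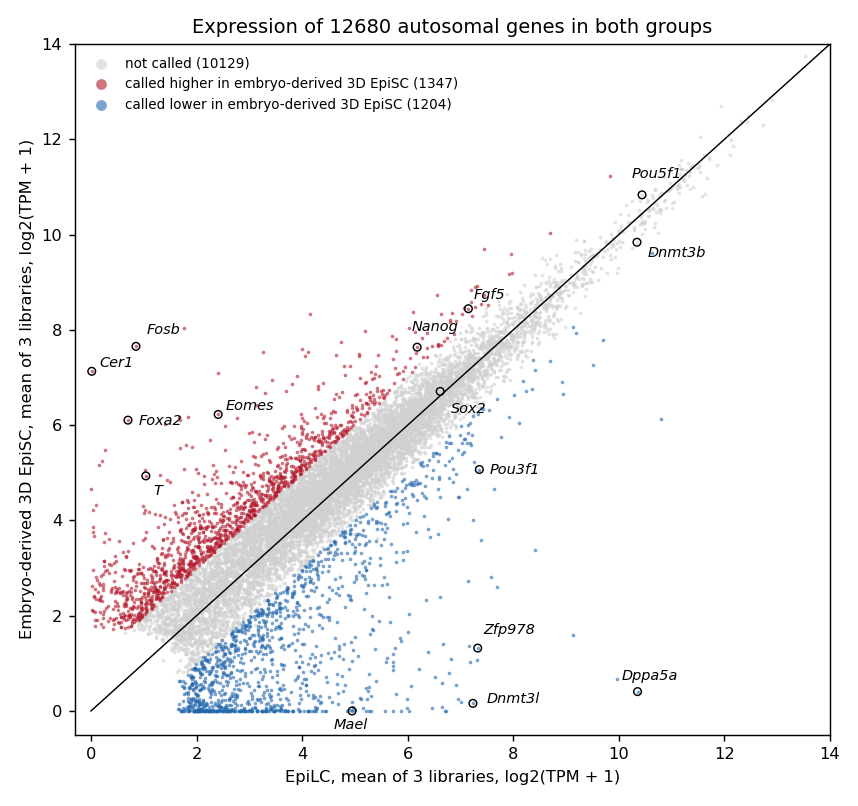
Mean log2(TPM + 1) over 3 libraries of each of 12680 autosomal genes, with EpiLCs on the horizontal and embryo-derived 3D EpiSCs on the vertical axis; red and blue points are the 1347 genes called higher and the 1204 called lower, and the line marks equal values. The blue points reach down to 0 on the vertical axis, and Dppa5a lies farthest from the line.

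The core pluripotency network was present in both cultures. Of 13 genes on this list, 1 was called higher (10.6% of all genes were), 2 were called lower (9.5%) and 10 were not called. The median difference was 0.09 (-0.03 after rescaling). The 2 called lower passed the filter only through EpiLCs and had to be lower. Pou5f1, which encodes Oct4, stood at 1702, 1871 and 1904 TPM in embryo-derived 3D EpiSCs and 1309, 1506 and 1353 TPM in EpiLCs. Its difference of 0.39 ± 0.09 was small but larger than the spread between libraries (adjusted p = 0.00407). After rescaling it was 0.27, near the threshold of the test (adjusted p = 0.0493). Sox2, the partner of Oct4 at many enhancers, stood at 99.5, 108 and 103 TPM in embryo-derived 3D EpiSCs and 99, 73.3 and 126 TPM in EpiLCs. The groups overlapped, and the difference of 0.093 ± 0.19 did not pass the test (adjusted p = 0.695).

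Nanog (ENSMUSG00000012396.12, chr6:122707489-122714633), which stabilises the pluripotent state, was the core factor called higher. It stood at 240.1, 176 and 183 TPM in embryo-derived 3D EpiSCs and 78.8, 72.7 and 63.7 TPM in EpiLCs. Every embryo-derived library was above every EpiLC library (1.46 ± 0.17, adjusted p = 2.56e-05). The 2 core genes called lower were Dppa2 (ENSMUSG00000072419.5, chr16:48303908-48319723) and Dppa4 (ENSMUSG00000058550.15, chr16:48283733-48294237), neighbours on the same strand whose proteins form a complex on chromatin. Dppa2 stood at 0.803, 0.42 and 0.229 TPM in embryo-derived 3D EpiSCs and 118, 117 and 124 TPM in EpiLCs. Dppa4 stood at 0.262, 0.238 and 0.0974 TPM in embryo-derived 3D EpiSCs and 123, 149.6 and 100.4 TPM in EpiLCs. Both were abundant in every EpiLC library and near 0 in every embryo-derived library, with differences of -6.36 ± 0.14 (adjusted p = 7.53e-11) for Dppa2 and -6.69 ± 0.23 (adjusted p = 1.24e-09) for Dppa4. In ESC-derived 3D EpiSCs they were as low, at 0.325, 0.385 and 0.486 TPM for Dppa2 and 0.222, 0.128 and 0.93 TPM for Dppa4.

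Genes of the naive state had the next lowest list median after the germline genes. Of 18 listed genes 11 were tested, 8 were called lower (9.5% of all genes were) and 2 higher (10.6%), with a median of -3.23. The filter was passed only through EpiLCs by 7 of the 11, Zfp42 and Dppa3 among them, so these had to be lower. Their summed level was 42.6 to 57.2 TPM in embryo-derived libraries and 1245 to 1914 TPM in EpiLC libraries. Dppa5a (ENSMUSG00000060461.5, chr9:78367052-78368177), an RNA-binding protein of early pluripotent cells, held most of this sum. Its level was 0.723, 0.139 and 0.186 TPM in embryo-derived 3D EpiSCs and 1021, 1659 and 1320.1 TPM in EpiLCs. This was the largest difference of any gene tested, at -9.95 ± 0.20, adjusted p = 5.96e-11.

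Zfp42 (Rex1), a reporter gene of naive cells, was listed at 0, 0 and 0 TPM in embryo-derived 3D EpiSCs and stood at 34.3, 39 and 35.5 TPM in EpiLCs (adjusted p = 3.84e-10). Dppa3 (Stella), which protects the genome of the early embryo from methylation changes, was also listed at 0 in all 3 embryo-derived libraries and stood at 8.39, 6.82 and 10.3 TPM in EpiLCs (adjusted p = 2.22e-09). Esrrb, an orphan nuclear receptor of the naive network, stood at 0.449, 0.578 and 0.539 TPM in embryo-derived 3D EpiSCs and 8.84, 10.7 and 12.3 TPM in EpiLCs (-2.92 ± 0.16, adjusted p = 7.02e-08). Tdh, the threonine dehydrogenase of mouse ESCs, was lower (-4.50 ± 0.41, adjusted p = 3.82e-06), and Fgf4, the autocrine FGF of naive cells, was too (-4.22 ± 0.13, adjusted p = 4.36e-10). None of these 5 genes overlapped between the groups (63.4% of all genes did not), and all were above 6 TPM in every EpiLC library. For Zfp42, Dppa3, Esrrb and Tdh the filter fixed this lack of overlap, as no embryo-derived library exceeded 2 TPM. Other naive factors were low on both sides: Prdm14 did not exceed 0.0517 TPM in any of the 6 libraries, and Tbx3 did not exceed 0.603 TPM.

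Klf4 and Klf2, Krüppel-like factors of the naive network, went the other way. Klf4 stood at 23.3, 13.7 and 14 TPM in embryo-derived 3D EpiSCs and 2.31, 1.83 and 2.1 TPM in EpiLCs (2.51 ± 0.19, adjusted p = 8.42e-07). Klf2 stood at 14.8, 8.89 and 9.42 TPM in embryo-derived 3D EpiSCs and 1.81, 2.12 and 3.37 TPM in EpiLCs (1.80 ± 0.23, adjusted p = 6.41e-05). Both were highest in embryo-derived replicate 1 and did not overlap between the groups. Their levels in ESC-derived 3D EpiSCs were close to those of the embryo-derived culture, at 15, 13.8 and 20.6 TPM for Klf4 and 8.61, 8.1 and 11.8 TPM for Klf2. In 2D EpiSCs they were nearer to EpiLCs, at 3.65, 3.5 and 3.48 TPM and 2.05, 1.35 and 0.97 TPM.

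Formative and early post-implantation genes did not move as a block. Of 21 listed genes 19 were tested, with 1 called higher (10.6% of all genes were), 5 called lower (9.5%) and 13 not called, and a median of -0.19. Dnmt3l, 1 of the 5, passed the filter only through EpiLCs and had to be lower. Fgf5, which marks the epiblast after implantation, stood at 338, 344 and 359.6 TPM in embryo-derived 3D EpiSCs and 137, 134 and 153 TPM in EpiLCs and was higher (1.29 ± 0.11, adjusted p = 1.81e-06). Otx2, the transcription factor that directs Oct4 to post-implantation enhancers, stood at 189.5, 177 and 189.6 TPM in embryo-derived 3D EpiSCs and 129.8, 134 and 118 TPM in EpiLCs. Its difference of 0.54 ± 0.12 passed the test (adjusted p = 0.00224) but not the size limit for a call. Pou3f1 (Oct6) stood at 28.5, 34.2 and 35.4 TPM in embryo-derived 3D EpiSCs and 161, 149 and 179.7 TPM in EpiLCs. It was lower (-2.29 ± 0.17, adjusted p = 8.34e-07) and its levels did not overlap, and Tcf15, another early formative factor, was lower (-3.42 ± 0.27, adjusted p = 1.02e-06). Fgf5, Otx2 and Pou3f1 were thus transcribed in all 6 libraries.

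The de novo methylation machinery differed in its cofactor more than in its main enzyme. Dnmt3b stood at 918, 911 and 914 TPM in embryo-derived 3D EpiSCs and 1236, 1172 and 1507 TPM in EpiLCs, the most abundant of the 3 Dnmt3 genes in both groups, and its difference of -0.50 ± 0.10 stayed within the size limit (adjusted p = 0.00133). Dnmt3a stood at 55.5, 70.6 and 70.4 TPM in embryo-derived 3D EpiSCs and 188, 191 and 577 TPM in EpiLCs. Its EpiLC level was uneven, with replicate 3 far above the others, and the difference of -2.06 ± 0.37 became -1.53 without that library, still a call. Dnmt3l (ENSMUSG00000000730.13, chr10:78041947-78063622), which has no catalytic activity and stimulates the other enzymes, stood at 0, 0.289 and 0.0811 TPM in embryo-derived 3D EpiSCs and 105, 178 and 179.9 TPM in EpiLCs. It was all but absent from the embryo-derived 3D EpiSCs (-7.08 ± 0.23, adjusted p = 9.05e-10), and no library of the ESC-derived 3D or 2D EpiSCs exceeded 0.866 TPM. Of the 9 tested genes of this list 1 was called higher (10.6% of all genes were) and 2 lower (9.5%). The higher gene was Tet3, which oxidises methylcytosine (1.16 ± 0.17, adjusted p = 0.000187). Dnmt1, the maintenance enzyme, was not called (-0.044 ± 0.12, adjusted p = 0.785).

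**Figure D2:**
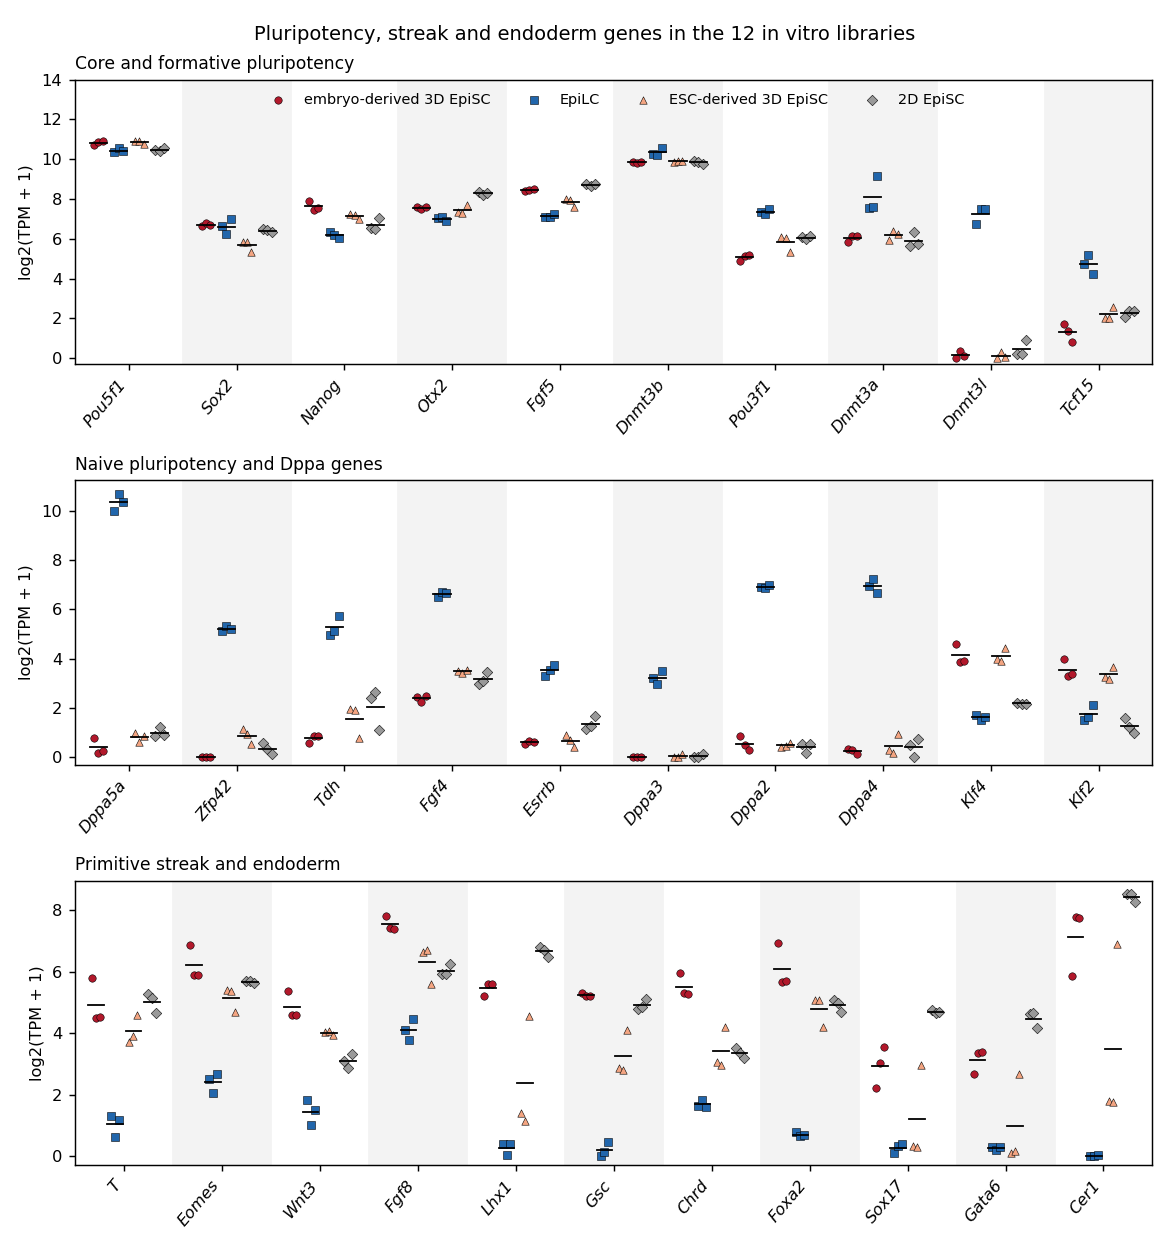
log2(TPM + 1) of core and formative, naive and Dppa, and streak and endoderm genes; each symbol is 1 library, bars are means of 3 libraries, and the 4 groups are embryo-derived 3D EpiSC, EpiLC, ESC-derived 3D EpiSC and 2D EpiSC. EpiLCs stand alone above the other groups for Dnmt3l, Dppa5a, Zfp42, Dppa2 and Dppa4 and below the embryo-derived 3D EpiSCs for all 11 streak and endoderm genes.

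Primitive streak genes were the list with the highest median. Of 18 listed genes 9 were tested, all 9 were called higher (10.6% of all genes were), and the median was 3.81. The filter was passed only through the embryo-derived libraries by 5 of the 9 (T, Gsc, Lhx1, Mixl1 and Sp5). These had to be higher, so this count and median are a description. The summed level was 415 to 608 TPM in embryo-derived libraries and 23.8 to 37.4 TPM in EpiLC libraries.

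T (Brachyury; ENSMUSG00000062327.10, chr17:8434423-8442496), the T-box factor of the streak and its mesoderm, stood at 54.6, 21.4 and 22 TPM in embryo-derived 3D EpiSCs and 1.46, 0.554 and 1.28 TPM in EpiLCs. Replicate 1 held more than either other embryo-derived library, and all 3 were above all EpiLC libraries (3.89 ± 0.35, adjusted p = 3.47e-06, and 3.46 without replicate 1). The filter fixed this lack of overlap, as no EpiLC library exceeded 2 TPM for T. Eomes, the T-box factor of the anterior streak and definitive endoderm, stood at 116, 59.3 and 58.1 TPM in embryo-derived 3D EpiSCs and 4.67, 3.19 and 5.31 TPM in EpiLCs (3.81 ± 0.27, adjusted p = 4.92e-07). Gsc (ENSMUSG00000021095.5, chr12:104471209-104473330), a homeobox gene of the organiser, stood at 38.6, 35.9 and 36 TPM in embryo-derived 3D EpiSCs and 0, 0.0999 and 0.387 TPM in EpiLCs. It was even across the embryo-derived libraries and near 0 in the EpiLCs (5.04 ± 0.28, adjusted p = 6.43e-08).

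Lhx1, a LIM homeobox factor of the anterior streak, was higher (5.20 ± 0.67, adjusted p = 6.18e-05), and Chrd, a secreted BMP antagonist of the organiser, was too (3.83 ± 0.29, adjusted p = 7.51e-07). Fgf8, needed for cells to leave the streak, stood at 226, 169.7 and 167 TPM in embryo-derived 3D EpiSCs and 16.1, 12.8 and 21.3 TPM in EpiLCs (3.42 ± 0.28, adjusted p = 1.5e-06). Mixl1, which acts in early endoderm and mesoderm, was higher (3.31 ± 0.30, adjusted p = 3.59e-06). Markers of mesoderm that has left the streak were at or near 0: Mesp1 and Msgn1 were listed at 0 in every embryo-derived library, Tbx6 did not exceed 0.994 TPM, and Cdx1 was at 0 in all 3. Early streak and organiser genes were therefore measured without later mesoderm genes in this culture.

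Endoderm genes are given next. Of 16 listed genes 8 were tested, 7 were called higher (10.6% of all genes were) and 1 (Dab2) lower (9.5%). As 6 of the 8 passed the filter only through the embryo-derived libraries and had to be higher, the count supports no statement about the list. Cer1, Foxa2, Sox17 and Gata6 are among the 6. The median was 2.63 and summed levels were 215 to 335 TPM against 12.7 to 16.9 TPM. Cer1 (ENSMUSG00000038192.5, chr4:82881751-82885148), a secreted antagonist of Nodal, BMP and Wnt made by anterior endoderm, stood at 56.7, 218 and 217 TPM in embryo-derived 3D EpiSCs and 0, 0 and 0.0322 TPM in EpiLCs. It was almost absent from EpiLCs and had the largest positive difference of all genes, at 7.11 ± 1.10, adjusted p = 0.000232. Its 3 embryo-derived values were uneven, and without replicate 1, the lowest, the difference was 7.75.

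Foxa2 (ENSMUSG00000037025.11, chr2:148042877-148046969), the forkhead factor of endoderm and axial mesoderm, stood at 123, 50.1 and 50.6 TPM in embryo-derived 3D EpiSCs and 0.721, 0.559 and 0.602 TPM in EpiLCs. Here replicate 1 was the highest, and the groups were far apart (5.40 ± 0.32, adjusted p = 1.19e-07). Sox17, a Sox factor of endoderm, stood at 3.68, 7.21 and 10.7 TPM in embryo-derived 3D EpiSCs and 0.0815, 0.261 and 0.299 TPM in EpiLCs (2.66 ± 0.58, adjusted p = 0.00238). Gata6 stood at 5.32, 9.25 and 9.57 TPM in embryo-derived 3D EpiSCs and 0.214, 0.143 and 0.227 TPM in EpiLCs (2.88 ± 0.54, adjusted p = 0.000923). Both were low in comparison with Foxa2. Gata4 stayed below the filter in both groups, at no more than 0.676 TPM. Genes of differentiated visceral endoderm were missing: Ttr was listed at 0 in all 6 libraries, Afp did not exceed 0.0721 TPM, Hnf4a 0.251 TPM and Cubn 0.509 TPM.

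Among markers of other lineages, few genes passed the filter. Of 16 neural markers 5 were tested, with 3 called higher (10.6% of all genes were) and 1 lower (9.5%). The lower gene was Tubb3, a call lost in 7 of 14 alternatives. The 3 called higher were cytoskeletal genes: Nefl and Nefm, which encode neurofilament proteins, and Nes, which encodes nestin. Nefl stood at 186, 187 and 182 TPM in embryo-derived 3D EpiSCs and 13.3, 6.11 and 7.68 TPM in EpiLCs (4.28 ± 0.37, adjusted p = 2.55e-06). The transcription factors that define neural ectoderm were low, with Sox1 at 0 to 0.179 TPM and Pax6 at 0.0494 to 0.117 TPM in embryo-derived libraries. Of 12 trophoblast markers 5 were tested, and 2 were higher (10.6% of all genes were) and 1 lower (9.5%). The 2 were Eomes and the keratin Krt7, and the lower gene was Gcm1. Krt7 passed the filter only through embryo-derived libraries and Gcm1 only through EpiLCs, so both had to differ. Elf5, Cdx2 and Hand1 did not exceed 0.297 TPM in any of the 6 libraries. Of 10 fibroblast markers 4 were tested, with Pdgfra higher (10.6% of all genes were) and Dcn and Thy1 lower (9.5%). Pdgfra passed the filter only through embryo-derived libraries and Dcn only through EpiLCs, so both had to differ. Dcn (decorin) stood at 0.0675, 0.0446 and 0 TPM in embryo-derived 3D EpiSCs and 12, 19.5 and 26.1 TPM in EpiLCs (-4.22 ± 0.25, adjusted p = 1.19e-07), while Lum was at 0 in all 6 libraries and Postn did not exceed 0.0551 TPM. The summed fibroblast level was 10.8 to 14.8 TPM in embryo-derived and 37.7 to 46.8 TPM in EpiLC libraries; its part in the other differences was not tested.

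Signalling genes were taken next by pathway role. For Nodal and Activin, 17 of 19 listed genes were tested, with 4 called higher (10.6% of all genes were) and 1 lower (9.5%) and a median of 0.68. The gene called lower, Gdf3, passed the filter only through EpiLCs and had to be lower. Nodal, the ligand that maintains the epiblast, stood at 70.9, 83.6 and 81.7 TPM in embryo-derived 3D EpiSCs and 47.8, 44.7 and 57.7 TPM in EpiLCs, a difference of 0.65 ± 0.16 that passed the test (adjusted p = 0.0051) without reaching the size for a call. Gdf3, a related ligand of naive cells, stood at 0.239, 0.0545 and 0.275 TPM in embryo-derived 3D EpiSCs and 75.3, 68.4 and 47.2 TPM in EpiLCs. It was lower in every embryo-derived library (-5.74 ± 0.16, adjusted p = 2.4e-10). The secreted inhibitor Lefty1 stood at 364, 558 and 551 TPM in embryo-derived 3D EpiSCs and 175, 114 and 199 TPM in EpiLCs. It was higher (1.60 ± 0.21, adjusted p = 6.2e-05), whereas Lefty2, the other Lefty gene, stood at 17.1, 22 and 22 TPM in embryo-derived 3D EpiSCs and 43.7, 38.5 and 37.4 TPM in EpiLCs, with a difference of -0.94 ± 0.21 (adjusted p = 0.00315), which was not called. Furin, a convertase that matures Nodal, was higher (1.65 ± 0.14, adjusted p = 2.46e-06). The receptors Acvr1b, Acvr2a and Acvr2b and the transducers Smad2, Smad3, Smad4 and Foxh1 were not called.

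For BMP, 14 of 21 listed genes were tested, with 5 called higher (10.6% of all genes were) and none lower (9.5%) and a median of 0.86. Only through embryo-derived libraries did 2 of the 14 pass the filter, Bmp2 among them, and these had to be higher. The embryo-derived culture contained Noggin. The ligand Bmp2 stood at 9.48, 12.5 and 13.3 TPM in embryo-derived 3D EpiSCs and 0.0326, 0 and 0.0892 TPM in EpiLCs (3.61 ± 0.46, adjusted p = 5.58e-05), and Bmp7 was higher (2.11 ± 0.27, adjusted p = 6.41e-05). Bmp4, the ligand of the extra-embryonic ectoderm, stood at 2.12, 2.18 and 1.92 TPM in embryo-derived 3D EpiSCs and 3.47, 5.95 and 4.35 TPM in EpiLCs, a difference of -0.84 ± 0.28 (adjusted p = 0.0231) that was not called. Of the target genes, Id1 stood at 21.4, 15.6 and 16.4 TPM in embryo-derived 3D EpiSCs and 4.59, 4.65 and 8.68 TPM in EpiLCs (1.47 ± 0.31, adjusted p = 0.00192), the inhibitor Smad6 was higher (1.21 ± 0.15, adjusted p = 4.91e-05), and Id2 (-0.37 ± 0.25, adjusted p = 0.224) and Id3 (0.96 ± 0.25, adjusted p = 0.00646) were not called. Noggin transcripts themselves (Nog) did not exceed 0.272 TPM.

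For Wnt, ligands, receptors and antagonists come before the targets. Of 17 tested genes of the first list 11 were higher (10.6% of all genes were) and none lower (9.5%), with a median of 1.43. Only through embryo-derived libraries did 4 of the 17 pass the filter, Frzb and Dkk1 among them, and these had to be higher. Wnt3, the ligand that starts the streak, stood at 40.1, 23.4 and 23 TPM in embryo-derived 3D EpiSCs and 2.54, 1.03 and 1.82 TPM in EpiLCs (3.41 ± 0.23, adjusted p = 3.43e-07). The secreted antagonists Frzb (2.66 ± 0.33, adjusted p = 4.11e-05) and Sfrp1 (1.48 ± 0.33, adjusted p = 0.00296) and 5 of the 7 tested Frizzled receptors (10.6% of all genes) were also higher. Dkk1, an antagonist that binds Lrp5 and Lrp6, was called (2.13 ± 0.77, adjusted p = 0.0347), but the call was lost in 7 of 14 alternatives, among them without EpiLC replicates 1, 2 or 3 in turn. Of 13 tested target and feedback genes 6 were higher (10.6% of all genes were) and none lower (9.5%), with a median of 0.85. The filter was passed only through embryo-derived libraries by 4 of the 13 (T, Lgr5, Sp5 and Dkk1), which had to be higher. Lgr5, the R-spondin receptor, stood at 8.17, 7.84 and 7.58 TPM in embryo-derived 3D EpiSCs and 0.189, 0.152 and 0.204 TPM in EpiLCs (2.91 ± 0.28, adjusted p = 6.69e-06), and Sp5, a direct target, at 5.05, 5.49 and 4.77 TPM in embryo-derived 3D EpiSCs and 0.123, 0.0724 and 0.309 TPM in EpiLCs (2.39 ± 0.17, adjusted p = 5.45e-07). Axin2, the general feedback target, stood at 19.3, 10.7 and 9.82 TPM in embryo-derived 3D EpiSCs and 6.94, 6.22 and 7.98 TPM in EpiLCs. Its difference of 0.77 ± 0.20 was not called (adjusted p = 0.00713), and Lef1 (-0.19 ± 0.11, adjusted p = 0.148) and Tcf7 (-0.65 ± 0.11, adjusted p = 0.000598) were not called either. The embryo-derived medium held the tankyrase inhibitor, and medium and origin cannot be told apart here.

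For FGF and its ERK feedback, 17 of 19 listed genes were tested, with 3 higher (10.6% of all genes were) and 4 lower (9.5%) and a median of 0.33. Higher were Fgf5, Fgf8 and Spred2, and lower were Fgf4, Fgf15, Dusp4 and Spry4. The ligands changed in both directions: Fgf4 was high in EpiLCs, at 89.6, 102 and 101 TPM, and Fgf5 and Fgf8 were high in embryo-derived 3D EpiSCs. Dusp4, a phosphatase of ERK, stood at 29, 19.7 and 19.9 TPM in embryo-derived 3D EpiSCs and 84.5, 72.4 and 48.5 TPM in EpiLCs (-1.53 ± 0.22, adjusted p = 0.000129). Dusp6, another phosphatase of ERK, stood at 180.2, 134 and 136 TPM in embryo-derived 3D EpiSCs and 131, 125 and 101 TPM in EpiLCs, a difference of 0.33 ± 0.17 (adjusted p = 0.133) that did not pass the test.

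Germline genes known to be silenced by promoter methylation formed the list with the lowest median. Of 24 listed genes 20 were tested, 19 were called lower (9.5% of all genes were) and 1 (Tdrkh) higher, with a median of -3.64 (-6.03 with a pseudocount of 0.1). All 19 passed the filter only through EpiLCs and had to be lower, so this count and median are a description and support no statement about the list. For 14 of the 20 every embryo-derived library was listed at 0. The summed level was 28.3 to 37.6 TPM in embryo-derived libraries, most of it Tdrkh, and 314 to 407 TPM in EpiLC libraries. They belong to the piRNA pathway, to meiosis and to germ-cell variants of general proteins, and Zfp42 and Dnd1 also stand on other lists.

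Mael, a piRNA factor, was listed at 0 in the 3 embryo-derived libraries and stood at 23.7, 34.5 and 32.4 TPM in EpiLCs (adjusted p = 1.45e-10). Rpl10l, the testis copy of ribosomal protein gene Rpl10, was at 0 against 40.2, 72.5 and 66.7 TPM (adjusted p = 3.94e-10). Hormad1, a protein of the meiotic chromosome axis, was at 0 against 14.7, 27.4 and 21.9 TPM (adjusted p = 2.21e-09), and Dazl, an RNA-binding protein of germ cells, at 0 against 11.6, 12.3 and 15.1 TPM (adjusted p = 1.78e-10). All 9 libraries of the 3 EpiSC groups were low for these 4 genes, at no more than 0.127 TPM. Tuba3a, a testis tubulin, stood at 0.118, 0.353 and 0.134 TPM in embryo-derived 3D EpiSCs and 32.4, 63.6 and 23.7 TPM in EpiLCs (-4.97 ± 0.26, adjusted p = 4.58e-08); it shares nearly all of its coding sequence with Tuba3b, and how reads were divided between them is uncertain, as it is for Rpl10l and Rpl10. Tdrkh, a Tudor protein of the piRNA pathway that many cells express, stood at 26.2, 35.2 and 30.0 TPM in embryo-derived 3D EpiSCs and 3.8, 5.21 and 3.31 TPM in EpiLCs (2.63 ± 0.21, adjusted p = 1.23e-06).

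The promoters of 3 of these genes are shown because an E-box or an E2F6 site is a known feature of promoters bound by PRC1.6, a polycomb complex that represses germline genes. They were picked because they hold a match, and the promoter of Zfp42, which holds neither motif, is not shown. Each line gives the 250 bases before the annotated start on the gene's strand (RefSeq, GRCm38.p6), with CACGTG or TCCCGC, read on either strand, in capitals. They lie at chr1:166238745-166238994, minus strand (Mael), chr6:125286082-125286331, minus strand (Tuba3a) and chr12:66284402-66284651, minus strand (Rpl10l).
Mael: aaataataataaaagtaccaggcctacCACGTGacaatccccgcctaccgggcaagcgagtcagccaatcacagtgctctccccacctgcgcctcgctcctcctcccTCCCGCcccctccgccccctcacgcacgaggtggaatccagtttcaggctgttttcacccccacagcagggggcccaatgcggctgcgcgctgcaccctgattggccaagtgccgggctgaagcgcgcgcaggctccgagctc
Tuba3a: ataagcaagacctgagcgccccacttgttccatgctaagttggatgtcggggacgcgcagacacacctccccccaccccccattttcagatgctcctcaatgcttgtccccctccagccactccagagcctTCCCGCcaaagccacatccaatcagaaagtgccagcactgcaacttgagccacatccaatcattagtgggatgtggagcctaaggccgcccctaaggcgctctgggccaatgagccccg
Rpl10l: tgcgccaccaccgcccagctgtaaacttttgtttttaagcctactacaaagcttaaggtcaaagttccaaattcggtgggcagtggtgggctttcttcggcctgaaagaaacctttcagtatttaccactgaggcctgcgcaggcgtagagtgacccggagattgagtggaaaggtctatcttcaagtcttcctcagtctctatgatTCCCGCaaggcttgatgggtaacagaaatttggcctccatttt

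CACGTG, the E-box, was present in 11 of the 22 listed germline genes with a RefSeq promoter (50%) and in 6.86% of 27025 genes. TCCCGC, the core of the E2F6 site, was present in 8 of the 22 (36.4%) and in 18.8% of all genes. Mael holds both motifs and has 18 CpG dinucleotides in this window, against 8 each in Tuba3a and Rpl10l. These matches describe sequence and not binding.

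A cluster of KRAB zinc finger genes on chromosome 4 also had nearly all protein-coding members lower. It was singled out after its values were seen and is given as a description. Between Platr16 and Zfp933 (chr4:145410245-147848366, mm10) 44 genes were tested, 30 were called lower (9.5% of all genes were) and none higher (10.6%). Of the 21 protein-coding genes 20 were lower, all but Zfp933, with a median of -4.70. Many of the 20 passed the filter only through EpiLCs and had to be lower, Zfp978, Zfp980, Rex2 and Zfp600 among them. The summed level of the 21 genes was 76.2 to 86.1 TPM in embryo-derived libraries and 1335 to 1950.0 TPM in EpiLCs. It was 126.5 to 135.8 TPM in ESC-derived 3D EpiSCs and 127.3 to 147.1 TPM in 2D EpiSCs. The EpiLCs therefore stood alone.

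Zfp978 stood at 1.59, 1.44 and 1.46 TPM in embryo-derived 3D EpiSCs and 146, 128 and 217 TPM in EpiLCs (-6.01 ± 0.20, adjusted p = 9.17e-10). Zfp980 stood at 1.12, 0.621 and 0.53 TPM in embryo-derived 3D EpiSCs and 98.6, 93.8 and 138 TPM in EpiLCs (-5.98 ± 0.17, adjusted p = 3.16e-10). Rex2, also in the cluster and not to be confused with Zfp42, was lower (-5.80 ± 0.16, adjusted p = 2.38e-10). Zfp600 was lower (-6.06 ± 0.25, adjusted p = 5.8e-09). EpiLC replicate 3 was the highest library for these 4 genes. Every EpiLC library was above every embryo-derived one, which the filter fixed, as no embryo-derived library exceeded 2 TPM for them. Members of the cluster are closely related copies, so the share of each gene is uncertain, and the sum over the cluster is the firmer value. Of 303 tested Zfp genes elsewhere, 25 were higher and 20 lower, with a median of 0.04.

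**Figure D3:**
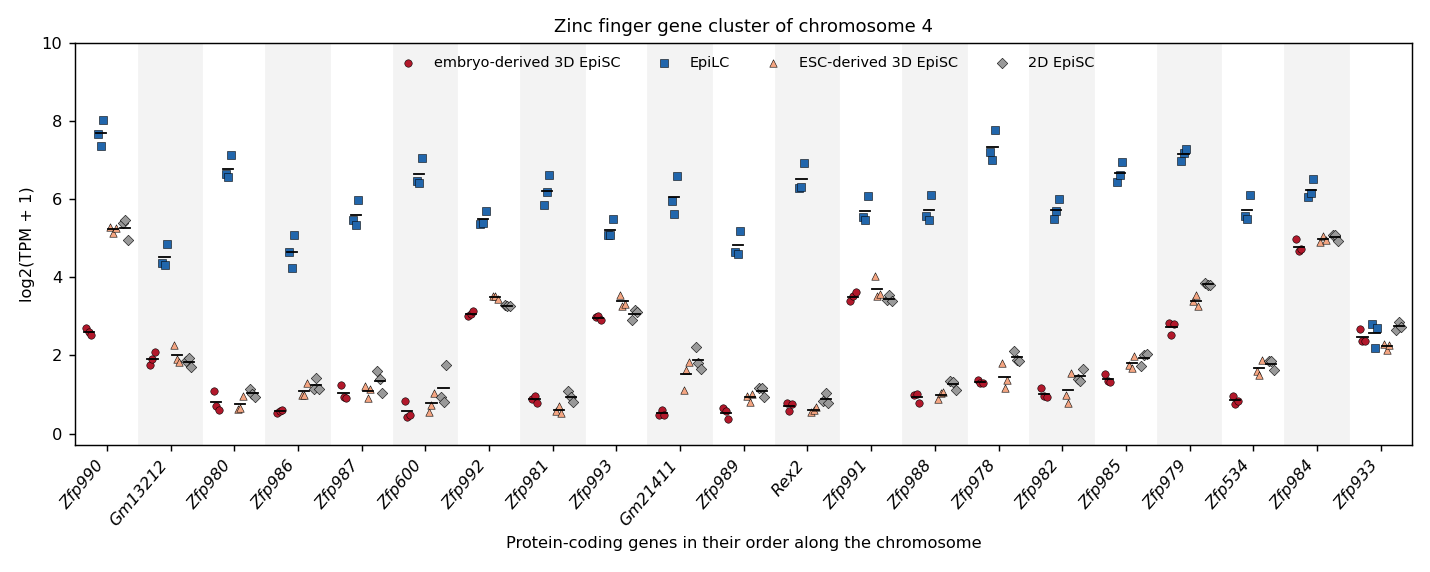
log2(TPM + 1) of the 21 tested protein-coding genes of the chromosome 4 zinc finger cluster in chromosomal order; each symbol is 1 library and bars are means of 3 libraries. The EpiLC squares lie above all other groups for 20 of the 21 genes, and Zfp933 is the exception.

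Many genes of the integrated stress response were higher in embryo-derived 3D EpiSCs. Of 28 listed genes 27 were tested, 21 were called higher (10.6% of all genes were) and none lower (9.5%), 1 of the 27 having passed the filter only through embryo-derived libraries, with a median of 1.52 and summed levels of 4460.0 to 8152 TPM against 2091 to 3162 TPM. Atf4, the transcription factor of this response, stood at 502, 619.7 and 608 TPM in embryo-derived 3D EpiSCs and 236, 304 and 192 TPM in EpiLCs (1.25 ± 0.16, adjusted p = 4.95e-05). Chac1, which degrades glutathione, stood at 97.3, 121 and 114 TPM in embryo-derived 3D EpiSCs and 7.71, 21.7 and 2.31 TPM in EpiLCs (3.68 ± 0.51, adjusted p = 0.000103). Pck2, the mitochondrial PEP carboxykinase, stood at 127, 243 and 231 TPM in embryo-derived 3D EpiSCs and 14.9, 23.5 and 9.35 TPM in EpiLCs (3.60 ± 0.36, adjusted p = 7.57e-06). EpiLC replicate 2 was the highest EpiLC library for these 3 genes, and it stayed below every embryo-derived library.

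Atf5, a paralog of Atf4, stood at 36.5, 373 and 375 TPM in embryo-derived 3D EpiSCs and 14.7, 19.7 and 12.9 TPM in EpiLCs. Replicate 1 was far below the other embryo-derived libraries, and the difference of 3.40 ± 0.69 became 4.51 without it. Serine synthesis was included, with Phgdh (1.21 ± 0.24, adjusted p = 0.00143), Psat1 (1.63 ± 0.30, adjusted p = 0.000845) and Psph (1.82 ± 0.44, adjusted p = 0.00477) all higher, as were asparagine synthetase Asns (1.63 ± 0.43, adjusted p = 0.0075) and the cystine transporter Slc7a11 (2.24 ± 0.31, adjusted p = 9.72e-05). Replicate 1 was the lowest embryo-derived library for each of these 5 genes. The members not called were Mthfd2, Slc3a2, Ddit4, Nupr1, Wars and Aars. No member was called between embryo-derived and ESC-derived 3D EpiSCs.

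The promoters of Chac1 and Pck2 are shown for the site that ATF4 and CHOP bind together. Both hold a match, which most listed genes with a RefSeq promoter do not, and other promoters of the list are not shown. The 250 bases before the start (RefSeq, GRCm38.p6) lie at chr2:119350992-119351241, plus strand (Chac1) and chr14:55540016-55540265, plus strand (Pck2), with TGATGNAA, read on either strand, in capitals.
Chac1: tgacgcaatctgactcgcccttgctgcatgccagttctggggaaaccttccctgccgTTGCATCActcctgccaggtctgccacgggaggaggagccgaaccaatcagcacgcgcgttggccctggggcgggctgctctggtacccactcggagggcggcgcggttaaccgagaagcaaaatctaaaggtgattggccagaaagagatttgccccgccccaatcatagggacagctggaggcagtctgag
Pck2: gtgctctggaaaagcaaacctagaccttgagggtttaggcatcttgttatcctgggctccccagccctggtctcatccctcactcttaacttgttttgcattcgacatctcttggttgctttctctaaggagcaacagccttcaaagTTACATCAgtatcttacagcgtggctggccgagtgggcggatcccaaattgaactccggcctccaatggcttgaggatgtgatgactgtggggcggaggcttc

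TGATGNAA was present in 8 of the 24 listed genes with a RefSeq promoter (33.3%) and in 3.91% of 27025 genes. In both promoters the match is on the opposite strand to the gene.

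Immediate early genes, which cells induce within minutes of a stimulus or of handling, were mixed. Of 21 listed genes 17 were tested, 8 were higher (10.6% of all genes were) and 1 (Ctgf) lower (9.5%), with a median of 0.94. Fos (ENSMUSG00000021250.13, chr12:85473890-85477273) stood at 453, 199 and 201 TPM in embryo-derived 3D EpiSCs and 7.18, 0.84 and 1.59 TPM in EpiLCs (6.28 ± 0.48, adjusted p = 9.18e-07). Fosb stood at 476, 131 and 129 TPM in embryo-derived 3D EpiSCs and 3.44, 0.0743 and 0.236 TPM in EpiLCs (6.80 ± 0.57, adjusted p = 1.82e-06). Replicate 1 was the highest embryo-derived library for both, and without it the differences were 5.89 and 6.18. Egr1 (3.02 ± 0.50, adjusted p = 0.000382), Jun (2.86 ± 0.42, adjusted p = 0.000159), Junb (1.97 ± 0.28, adjusted p = 0.000135) and Atf3 (3.64 ± 0.24, adjusted p = 2.35e-07) were higher as well. Myc (-0.042 ± 0.11, adjusted p = 0.76), Btg2 (-0.10 ± 0.14, adjusted p = 0.572) and Ier2 (0.11 ± 0.19, adjusted p = 0.643) were not called. ESC-derived 3D EpiSCs were likewise high for Fos, at 267, 270.0 and 319 TPM, and Fosb, at 151, 160.3 and 193 TPM, and 2D EpiSCs stood between, at 64.9, 58.6 and 37.4 TPM and 28.2, 26.9 and 15.5 TPM.

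**Figure D4:**
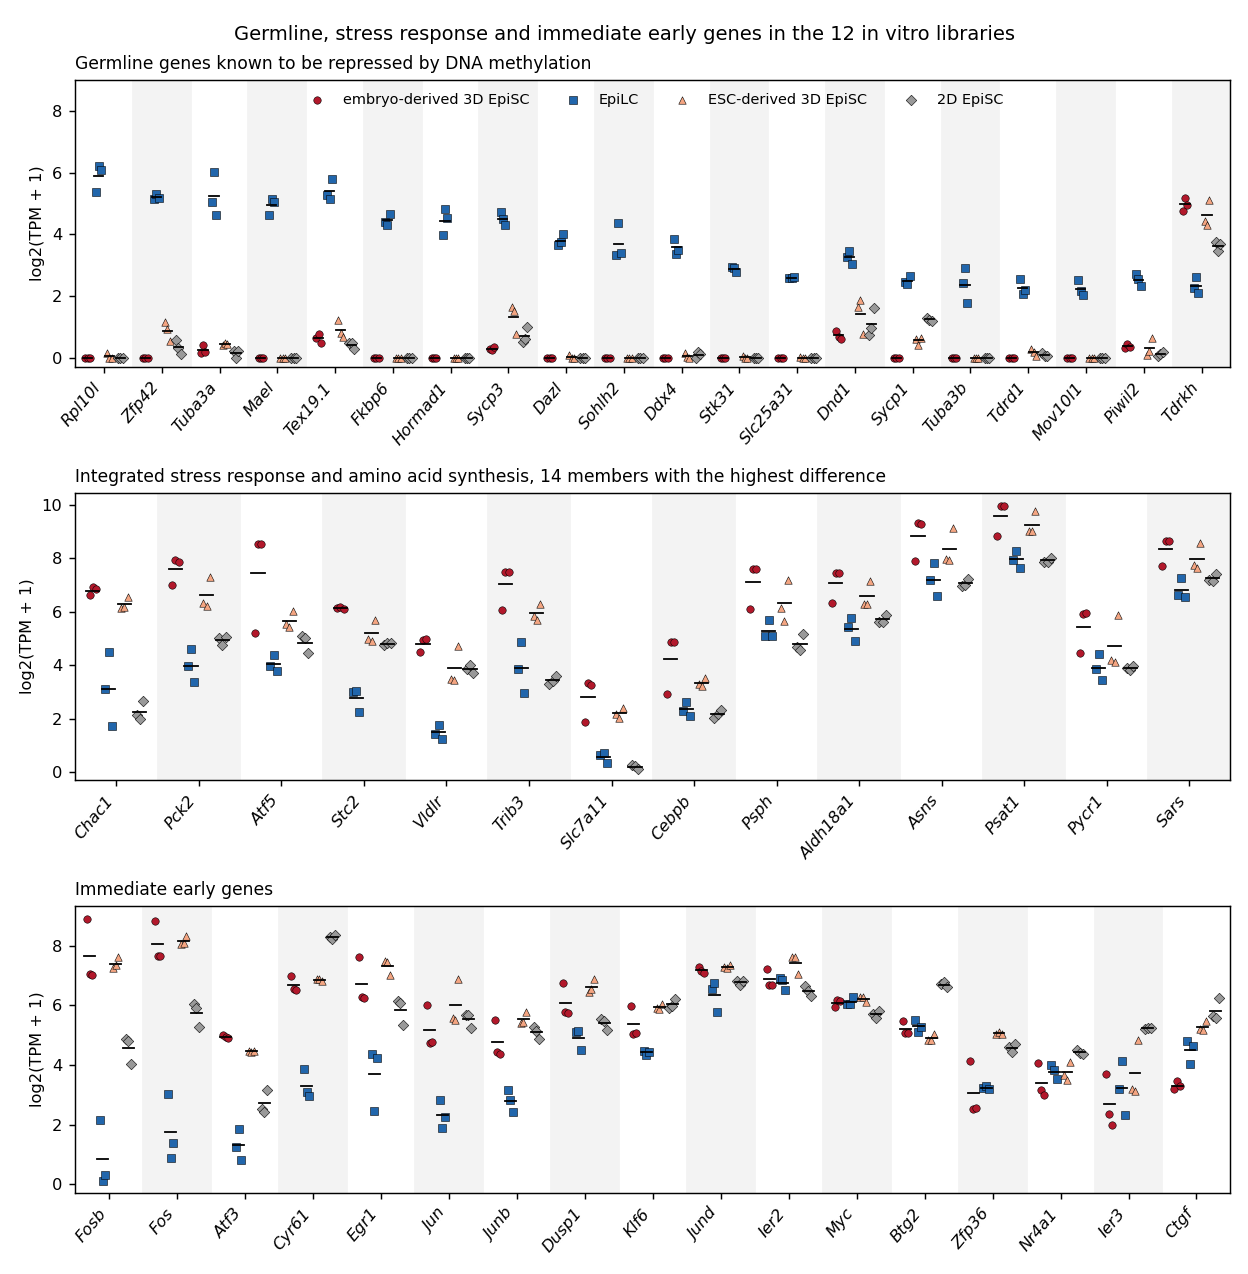
log2(TPM + 1) of the 20 tested germline genes, 14 members of the integrated stress response list and the 17 tested immediate early genes; each symbol is 1 library and bars are means of 3 libraries. EpiLCs are the only group above 2 TPM for most germline genes, and embryo-derived replicate 1 lies apart from replicates 2 and 3 for Atf5, Fosb and Fos.

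Of 19 tested epithelial junction and keratin genes 5 were higher (10.6% of all genes were), 1 was lower (9.5%) and 13 were not called, with a median of 0.34. Cdh1 (E-cadherin) stood at 390.2, 341 and 348 TPM in embryo-derived 3D EpiSCs and 568, 482 and 479 TPM in EpiLCs, a difference of -0.50 ± 0.11 (adjusted p = 0.002). The keratins Krt8 (2.27 ± 0.16, adjusted p = 3.83e-07) and Krt18 (1.69 ± 0.20, adjusted p = 3.3e-05) and the desmosome genes Dsp (1.95 ± 0.23, adjusted p = 3.28e-05) and Dsg2 (1.52 ± 0.22, adjusted p = 0.000123) were higher. Krt8 stood at 83.5, 70.5 and 70.3 TPM in embryo-derived 3D EpiSCs and 16.3, 16.6 and 11.7 TPM in EpiLCs, without overlap, and was higher still in 2D EpiSCs, at 339, 323 and 286 TPM. Cldn4, a tight junction claudin, was the gene called lower, at 2.02, 2.39 and 2.56 TPM in embryo-derived 3D EpiSCs and 38.8, 52 and 29 TPM in EpiLCs (-3.59 ± 0.18, adjusted p = 2.5e-08).

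Apical polarity genes, which act in opening a lumen, had a median of 0.13 (0.02 after rescaling). Of 13 tested genes 2 were higher (10.6% of all genes were), 1 was lower (9.5%) and 10 were not called. Podxl (podocalyxin), an anti-adhesive protein of the lumen, stood at 76.1, 55.9 and 54.8 TPM in embryo-derived 3D EpiSCs and 32.4, 32.4 and 33.3 TPM in EpiLCs, a difference of 0.89 ± 0.23 (adjusted p = 0.0072) that was not called. Crb3, the epithelial Crumbs protein, was higher (1.24 ± 0.15, adjusted p = 3.72e-05), and Cgn (cingulin) of the tight junction was lower (-1.44 ± 0.22, adjusted p = 0.000185). Prom1, of apical protrusions, was called (1.02 ± 0.10, adjusted p = 6.91e-06) and lost the call in 4 of 14 alternatives. Prkci (-0.40 ± 0.14, adjusted p = 0.0264), Prkcz (0.054 ± 0.20, adjusted p = 0.835) and Pard3 (0.29 ± 0.19, adjusted p = 0.22), members of the Par complex, were not called.

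Basement membrane genes and their receptors gave 4 lower (9.5% of all genes were) and none higher (10.6%) of 15 tested, with a median of 0.33. The laminin chains Lama5 (0.56 ± 0.12, adjusted p = 0.00273), Lamb1 (0.33 ± 0.10, adjusted p = 0.0129) and Lamc1 (0.80 ± 0.16, adjusted p = 0.00161) were not called. Col18a1, a heparan sulfate collagen, stood at 46, 56.3 and 58.1 TPM in embryo-derived 3D EpiSCs and 227, 202 and 221 TPM in EpiLCs (-2.005 ± 0.11, adjusted p = 4.96e-08), and Nid2 (nidogen 2) was lower (-1.74 ± 0.19, adjusted p = 1.77e-05). The laminin receptor subunit Itga3 was lower (-1.59 ± 0.10, adjusted p = 1.67e-07), and Itga6 (-1.18 ± 0.28, adjusted p = 0.00432), with the difference at -0.88 and no call without EpiLC replicate 1. Of 4 tested fibronectin, vitronectin and collagen receptor genes 1 was higher (10.6% of all genes were) and 1 lower (9.5%). Itgb5 was higher (1.68 ± 0.14, adjusted p = 1.35e-06) and Fn1 (fibronectin) lower (-2.06 ± 0.23, adjusted p = 1.89e-05). Embryo-derived cells grew in a gel that supplies laminin and collagen IV, and EpiLCs were a 2D culture.

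Of 7 tested genes of the mesenchymal transition 4 were higher (10.6% of all genes were) and 2 lower (9.5%). Zeb1 and Zeb2, 2 of the 4, passed the filter only through embryo-derived libraries and had to be higher. Cdh2 (N-cadherin) stood at 25.9, 26.2 and 28 TPM in embryo-derived 3D EpiSCs and 3.7, 2.88 and 6.32 TPM in EpiLCs (2.44 ± 0.30, adjusted p = 4.22e-05). Zeb1 (1.29 ± 0.18, adjusted p = 0.00012) and Zeb2 (1.40 ± 0.24, adjusted p = 0.000527), repressors of E-cadherin, were higher at low levels, with Zeb2 at 3.03, 3.42 and 3.36 TPM in the embryo-derived libraries. Mmp14, a matrix metalloproteinase gene, was the other gene called higher (1.41 ± 0.14, adjusted p = 8.21e-06). The 2 lower genes were Mmp2, also of a matrix metalloproteinase, and Fn1. Mmp2 stood at 3.98, 5.11 and 4.57 TPM in embryo-derived 3D EpiSCs and 30.3, 21.9 and 20.6 TPM in EpiLCs (-2.17 ± 0.16, adjusted p = 6e-07). Fn1 differed by -2.06 ± 0.23 (adjusted p = 1.89e-05). Vim (vimentin) was not called (0.031 ± 0.22, adjusted p = 0.913). For the Hippo pathway and contractility, 5 of 15 tested genes were higher (10.6% of all genes were) and 2 lower (9.5%). The filter was passed only through EpiLCs by 2 of the 15. Cyr61 stood at 126, 92.6 and 89.8 TPM in embryo-derived 3D EpiSCs and 13.5, 7.47 and 6.86 TPM in EpiLCs (3.37 ± 0.20, adjusted p = 1.25e-07), whereas Ctgf, like it a target of Yap, stood at 8.1, 9.96 and 8.71 TPM in embryo-derived 3D EpiSCs and 27.1, 15.5 and 23.5 TPM in EpiLCs (-1.18 ± 0.21, adjusted p = 0.000673). These targets moved in opposite directions, and Yap1 itself was not called (0.14 ± 0.09, adjusted p = 0.237).

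Of 21 tested p53 targets and G1 regulators 3 were higher (10.6% of all genes were), 4 were lower (9.5%) and 14 were not called. The median was 0.14 (0.02 after rescaling). Cdkn2a and Pmaip1, 2 of the 4, passed the filter only through EpiLCs and had to be lower. Ccnd2 (cyclin D2) stood at 46.3, 88.4 and 88.6 TPM in embryo-derived 3D EpiSCs and 3.28, 2.17 and 2.34 TPM in EpiLCs (4.34 ± 0.33, adjusted p = 8.24e-07), and its partner Cdk6 was higher (2.32 ± 0.27, adjusted p = 2.89e-05). Ccne1 (cyclin E1) stood at 113, 106 and 105 TPM in embryo-derived 3D EpiSCs and 299, 366 and 321 TPM in EpiLCs and was lower (-1.60 ± 0.10, adjusted p = 1.74e-07). Cdkn2a, which encodes the inhibitor p16 and the p53 activator Arf, stood at 0.864, 0.688 and 0.603 TPM in embryo-derived 3D EpiSCs and 27.4, 33.8 and 15.6 TPM in EpiLCs (-3.89 ± 0.33, adjusted p = 1.87e-06), and Cdkn2b, its neighbour, was lower (-1.96 ± 0.30, adjusted p = 0.000225). Pmaip1 (Noxa), a pro-apoptotic BH3 gene, stood at 0, 0 and 0.118 TPM in embryo-derived 3D EpiSCs and 92.2, 70.1 and 102 TPM in EpiLCs (-6.41 ± 0.31, adjusted p = 2.27e-08). Cdkn1a (p21; 0.56 ± 0.15, adjusted p = 0.00933), Mdm2 (-0.43 ± 0.16, adjusted p = 0.0443) and Trp53 (0.14 ± 0.09, adjusted p = 0.226) were not called.

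Of 27 tested imprinted genes 5 were higher (10.6% of all genes were), 6 were lower (9.5%) and 16 were not called, with a median of -0.06. The filter was passed only through EpiLCs by 3 of the 27, Nnat and H19 among them, and only through embryo-derived libraries by 1, Igf2. These had to differ. Grb10, a maternally expressed growth inhibitor in most tissues, stood at 220.4, 393 and 386 TPM in embryo-derived 3D EpiSCs and 16.2, 13.8 and 20.9 TPM in EpiLCs (4.19 ± 0.42, adjusted p = 8.61e-06). Igf2, a paternally expressed growth factor, was higher (2.67 ± 0.32, adjusted p = 3.56e-05), and H19, the maternally expressed RNA beside it, was lower (-2.65 ± 0.36, adjusted p = 8.55e-05). Nnat (ENSMUSG00000067786.16, chr2:157560078-157562522), a paternally expressed gene, stood at 0.839, 1.34 and 1.78 TPM in embryo-derived 3D EpiSCs and 63.1, 51.7 and 42 TPM in EpiLCs (-4.52 ± 0.31, adjusted p = 3.53e-07). It was also low against ESC-derived 3D EpiSCs, at 158, 159 and 62.6 TPM, and 2D EpiSCs, at 104, 99.6 and 96.7 TPM. Gnas was higher (2.26 ± 0.12, adjusted p = 5.68e-08).

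Of 25 tested hypoxia and glycolysis genes 3 were higher (10.6% of all genes were) and 2 lower (9.5%), with a median of -0.04. Vegfa stood at 70.1, 94.8 and 92.1 TPM in embryo-derived 3D EpiSCs and 9.5, 13.3 and 3.51 TPM in EpiLCs (3.29 ± 0.38, adjusted p = 2.41e-05). Ndrg1, a hypoxia target, stood at 80.3, 17.8 and 17.8 TPM in embryo-derived 3D EpiSCs and 3.87, 7.86 and 1.03 TPM in EpiLCs. Embryo-derived replicate 1 was far above the others, and the difference of 2.79 ± 0.60 was 2.08 without it (adjusted p = 0.00511). Ldhb, a lactate dehydrogenase subunit, stood at 130.3, 112 and 116 TPM in embryo-derived 3D EpiSCs and 438, 499.8 and 514 TPM in EpiLCs (-2.01 ± 0.13, adjusted p = 1.91e-07), while Ldha was not called (0.38 ± 0.21, adjusted p = 0.136). Of 10 tested retinoic acid genes 4 were higher (10.6% of all genes were) and 2 lower (9.5%). Of the 10, 2 passed the filter only through embryo-derived libraries, Cyp26a1 among them. Cyp26a1, which degrades retinoic acid, stood at 18.6, 19 and 19.3 TPM in embryo-derived 3D EpiSCs and 0.0454, 0 and 0.187 TPM in EpiLCs (4.22 ± 0.62, adjusted p = 0.000157). The binding protein Crabp2 was lower (-2.17 ± 0.18, adjusted p = 1.62e-06).

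Of 8 tested MHC class I genes 1 was higher (10.6% of all genes were) and 2 lower (9.5%). The filter was passed only through EpiLCs by 1 of the 8. B2m, the light chain, was higher (1.08 ± 0.18, adjusted p = 0.00037), at 0.96 and no call after rescaling. The immunoproteasome genes Psmb8 (-1.96 ± 0.16, adjusted p = 1.53e-06) and Psmb10 (-1.89 ± 0.21, adjusted p = 1.6e-05) were lower. Of 15 tested polycomb genes none was higher (10.6% of all genes were) and 1 was lower (9.5%). Ezh1 was the lower gene (-1.31 ± 0.24, adjusted p = 0.000829), and Ezh2 was not called (0.27 ± 0.12, adjusted p = 0.0753). Of 6 tested germ cell specifiers 2 were higher (10.6% of all genes were) and 3 lower (9.5%). The filter was passed only through EpiLCs by 2 of the 6 and only through embryo-derived libraries by 1. Ifitm3, a membrane protein of early germ cells and of antiviral defence, stood at 7.95, 6.67 and 4.03 TPM in embryo-derived 3D EpiSCs and 176, 215 and 183 TPM in EpiLCs (-4.77 ± 0.20, adjusted p = 5.44e-09). Prdm1 (Blimp1), the germ cell determinant, stood at 2.06, 2.73 and 3.4 TPM in embryo-derived 3D EpiSCs and 2.44, 2.8 and 3.24 TPM in EpiLCs and overlapped between the groups (-0.048 ± 0.32, adjusted p = 0.908).

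**Figure D5:**
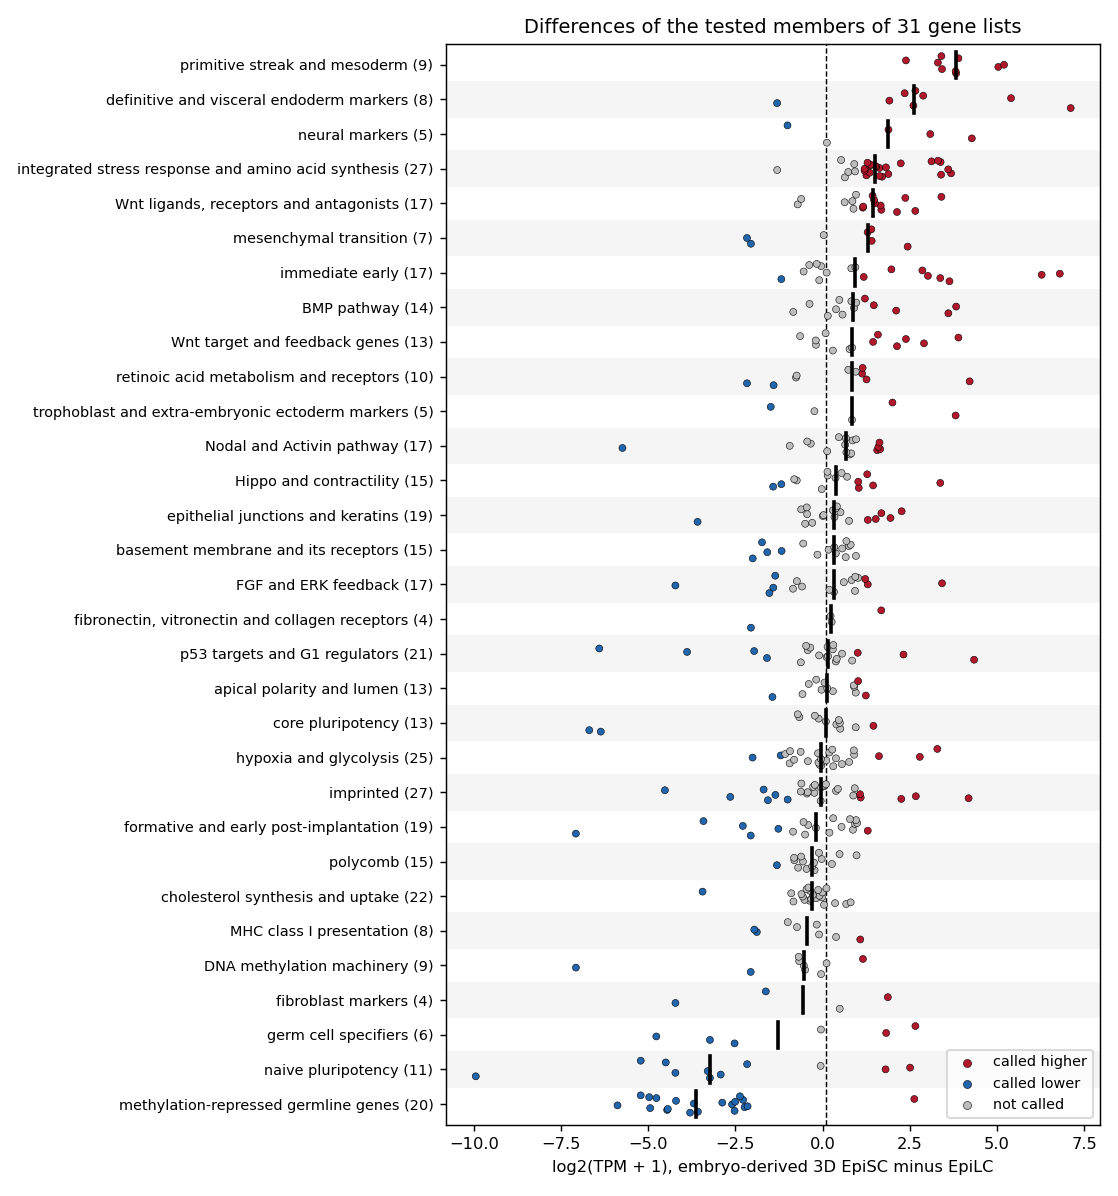
Difference in mean log2(TPM + 1), embryo-derived 3D EpiSC minus EpiLC, of every tested member of 31 gene lists, with the number tested in brackets; bars are list medians and the dashed line is the median of all genes, 0.09. Primitive streak genes have the highest median, 3.81, and germline genes the lowest, -3.64.

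Outside these lists, the genes with the largest differences were of varied function. Pkdcc, a secreted tyrosine kinase, stood at 137, 131 and 137 TPM in embryo-derived 3D EpiSCs and 4.34, 4.34 and 4.32 TPM in EpiLCs. It was even within both groups (4.67 ± 0.13, adjusted p = 2.38e-10). Slc39a8, a zinc and manganese transporter, was higher (4.51 ± 0.22, adjusted p = 2.05e-08), and Cd59a, an inhibitor of complement, was too (4.43 ± 0.15, adjusted p = 9.34e-10). Pga5, a pepsinogen, stood at 13, 31.8 and 33.9 TPM in embryo-derived 3D EpiSCs and was listed at 0 in all EpiLC libraries (adjusted p = 0.00425). It passed the filter only through embryo-derived libraries and had to be higher. H1fx, a linker histone, stood at 53.9, 72 and 68.3 TPM in embryo-derived 3D EpiSCs and 0, 0 and 17.8 TPM in EpiLCs. A library at 0 beside another of its group above 10 TPM occurred for 4 of the genes tested in EpiLCs, such zeros may be failed estimates, and the difference of 4.62 ± 0.85 (adjusted p = 0.000796) is uncertain. Another of the 4 was Spry1, an ERK feedback inhibitor, at 27.7, 27.8 and 0 TPM in EpiLCs.

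Among the lowest genes outside the lists were restriction factors. Apobec3 (ENSMUSG00000009585.18, chr15:79891659-79915906), a cytidine deaminase that restricts retroviruses, stood at 0.0849, 0.25 and 0.0928 TPM in embryo-derived 3D EpiSCs and 116, 141 and 129 TPM in EpiLCs (-6.83 ± 0.10, adjusted p = 4.39e-12). Trim25, a ubiquitin ligase of antiviral signalling, was listed at 0 in every embryo-derived library and stood at 63.1, 65.2 and 65.3 TPM in EpiLCs (adjusted p = 6.73e-11). Both were present in ESC-derived 3D EpiSCs, Apobec3 at 26.7, 27.9 and 25.5 TPM and Trim25 at 11.8, 11.2 and 16.6 TPM, and in 2D EpiSCs, at 46.3, 48.2 and 45.9 TPM and 26.3, 24.1 and 28.9 TPM. Wt1, a zinc finger factor of mesodermal organs, stood at 0, 0.116 and 0 TPM in embryo-derived 3D EpiSCs and 42.4, 63.7 and 89.5 TPM in EpiLCs (-5.93 ± 0.32, adjusted p = 5.04e-08). Rpl39l, a testis copy of ribosomal protein gene Rpl39, was at 0 against 52.1, 122 and 175 TPM (adjusted p = 1.51e-08). Pla2g1b, a secreted phospholipase, was lower (-5.79 ± 0.42, adjusted p = 5.74e-07). Apobec3, Trim25, Wt1 and Rpl39l passed the filter only through EpiLCs and had to be lower.

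The ESC-derived 3D EpiSCs shared medium and gel with the embryo-derived culture. The embryo-derived libraries enter this comparison too, so the values of both are given side by side. Against ESC-derived 3D EpiSCs, 248 genes were higher (1.96%), 276 were lower (2.18%) and 524 were called in all (4.13%). Genes that were near 0 in embryo-derived 3D EpiSCs and abundant in EpiLCs did not all behave alike. Of the 20 tested germline genes 1 (Sycp3) was lower than in ESC-derived 3D EpiSCs, with a list median of -0.03. Of the 21 protein-coding genes of the chromosome 4 cluster 2 (Zfp990 and Gm21411) were lower, with a median of -0.19. Apobec3 (-4.60 ± 0.10, adjusted p = 1.8e-10), Trim25 (adjusted p = 1.12e-08) and Nnat (-5.68 ± 0.31, adjusted p = 5.02e-07) were lower in both comparisons.

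Of the 9 streak genes 7 were higher than in ESC-derived 3D EpiSCs, with a median of 1.79 against 0.11 over all genes, and so were 4 of 8 endoderm genes, with a median of 1.81. Gsc stood at 6.37, 5.95 and 16.1 TPM in the ESC-derived libraries and differed by 1.98 ± 0.28 (adjusted p = 0.000934). T stood at 12.3, 14.1 and 23 TPM and was not called (0.86 ± 0.35, adjusted p = 0.105). Cer1 stood at 2.44, 2.36 and 119 TPM, with replicate 3 far above the other 2, and its difference of 3.65 ± 1.10 (adjusted p = 0.0402) rests on that uneven group. Replicate 3 is the ESC-derived library that stood apart over all genes. Without it 451 genes were higher and 261 lower, so counts of this comparison depend on that library.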

How the data were processed

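RNA was extracted with RNeasy columns, libraries were made with a stranded, capture-based mRNA kit and sequenced paired-end on a NovaSeq. Reads were trimmed with cutadapt 2.4 and aligned with STAR to mm10, and StringTie gave 1 TPM value per GENCODE gene, per the study's methods and the submitters' processing notes. The authors deposited TPM, transcript shares corrected for length, for 27 libraries in 1 table; no counts were used here. Every library sums to 1000000, so depth is unknown and no counting interval can be given. The study tested counts, and TPM needs another test.

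The table has 54490 lines. Lines of 1 gene ID were summed (12 IDs) and empty cells (56 lines) were read as 0. By the deposited chromosome, 50225 of 54446 genes are autosomal. GENCODE vM21 gave a gene type, such as protein-coding, for 54409 of the 54446 genes. Genes above 2 TPM in at least 3 of the 6 libraries compared were tested with limma 3.58.1 (R 4.3.3; lmFit and eBayes without trend) on log2(TPM + 1) in 1 fit over 12 libraries of 4 groups, with Benjamini-Hochberg adjustment over 12680 genes. Calls needed an adjusted p below 0.05 and an absolute difference above 1. On simulated data of 12680 genes for the embryo-derived against EpiLC comparison, 95% of 100 genes shifted by 1.5 and 99% of 100 shifted by 2 were recovered, with 1 unchanged gene called. Tables and plots used Python 3.11.15, numpy 2.4.6, pandas 2.3.3 and matplotlib 3.10.9.

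The comparison and the 31 gene lists (523 genes) were chosen with earlier results of these data known. The named genes are 15 called protein-coding genes of largest change in each direction without overlap, a set of anchor genes, and up to 4 called members per list and direction, 154 genes in all. Other list members given with a value, and the genes of the chromosome 4 cluster, were chosen after their values were seen. The results of some genes are not reported here. Alternatives were a pseudocount of 0.1, no filter, protein-coding genes alone, median-of-ratios scaling, a fit of the compared groups alone, a replicate block, eBayes with trend, close replicates averaged and each library left out in turn. Reads of near-identical genes may have been divided between copies. The promoter search read 250 bases upstream of RefSeq starts in GRCm38.p6, the assembly also called mm10.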

Additional observations from a re-analysis of the deposited data

Results flagged for a closer look

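The values here are log2 differences of embryo-derived minus ESC-derived 3D EpiSCs, each past the threshold (limma, adjusted p below 0.05 and a difference above 1). Since both were compared with the same EpiLCs, each is also the test of whether the difference from EpiLCs was unequal for the 3D cultures. Among streak and endoderm genes the embryo-derived cells were higher for Cer1 (3.65), Lhx1 (3.10), Gata6 (2.16), Chrd (2.11), Gsc (1.98), Foxa2 (1.33), Fgf8 (1.22) and Eomes (1.07). The ESC-derived libraries were uneven here, at 2.44, 2.36 and 119 TPM for Cer1, 1.64, 1.21 and 22.6 TPM for Lhx1 and 0.0628, 0.118 and 5.42 TPM for Gata6. Replicate 3, the library that stood apart, was the highest of the 3 also for Chrd and Gsc and the lowest for Foxa2, Fgf8 and Eomes. Among signalling genes the embryo-derived cells were higher for Lgr5 (1.89), Bmp7 (1.84), Sp5 (1.79), Bmp2 (1.71), Wnt11 (1.501), Frzb (1.34), Spred2 (1.32) and Lefty1 (1.30). They were lower for Fgf15 (-1.10) and Fgf4 (-1.08). ESC-derived replicate 3 was again far above the others for Bmp2 (1.34, 1.34 and 9.68 TPM), Lgr5 (0.739, 0.743 and 3.48 TPM) and Frzb (1.48, 1.07 and 3.74 TPM). It was the lowest of the group for Wnt11 and Fgf15.

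Other genes that were higher were Cyp26a1 (2.25), Cd59a (2.07), Ccnd2 (2.04), Grb10 (1.99), Pdgfra (1.85), Zeb2 (1.47), Zeb1 (1.42), Cdh2 (1.35), Kit (1.26), Igf2 (1.14), Cdkn1a (1.12), Pkdcc (1.10), H13 (1.04) and Sox2 (1.04). Sox2 and Cdkn1a are not called against EpiLCs. The ESC-derived libraries were uneven for Cyp26a1 (1.08, 1.15 and 15.6 TPM) and Ccnd2 (12.1, 12.9 and 28.8 TPM), with replicate 3 the highest. The same held for Grb10 (55.6, 56.1 and 168 TPM) and Cdh2 (7.15, 7.36 and 18 TPM). Lower genes were Nnat (-5.68), Apobec3 (-4.60), Trim25 (-3.81), Cldn4 (-2.85), Ifitm3 (-2.39), Pmaip1 (-2.36), Ctgf (-1.98), Cnn1 (-1.76), Pla2g1b (-1.40), H19 (-1.40), Crabp2 (-1.14), Nid2 (-1.12), Thy1 (-1.12), Mmp2 (-1.05) and Col18a1 (-1.01).

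Y-linked genes lie outside the autosomal comparison. Of 12 past the TPM filter, the 4 with the largest differences of means are given, and they were not tested. Kdm5d, a histone demethylase, stood at 10.4, 10.4 and 10.8 TPM in embryo-derived 3D EpiSCs and 0.745, 0.649 and 0.382 TPM in EpiLCs, a difference of 2.87, and at no more than 0.956 TPM in either other group. Uba1y stood at 0, 0.0157 and 0.0597 TPM in embryo-derived 3D EpiSCs and 6.19, 6.7 and 7.48 TPM in EpiLCs, a difference of -2.92. The pseudogene Mid1-ps1 stood at 1.16, 0.931 and 1.67 TPM in embryo-derived 3D EpiSCs and 219, 134 and 155 TPM in EpiLCs (-6.22), and Gm21742 at 0.834, 0.503 and 0.622 TPM in embryo-derived 3D EpiSCs and 255, 152 and 184 TPM in EpiLCs (-6.88). Both were also abundant in ESC-derived 3D EpiSCs, at 87.3, 84 and 95.6 TPM and 81.5, 81.6 and 107 TPM.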

How the results depend on the processing

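The counts of genes higher and lower than in EpiLCs stayed within 1.5 times 1347 and 1204 under all 14 alternatives, at 1243 to 1468 and 1180 to 1228 with each library left out in turn. Rescaling by median of ratios gave 1105 higher and 1340 lower, so the share of calls that were higher went from 52.8% to 45.2%, and which direction had more calls depends on it. Against ESC-derived 3D EpiSCs, the pseudocount of 0.1 gave 416 lower and averaging close replicates gave 139 higher. Leaving out each library gave 163 to 451 higher, the ends being without ESC-derived 3D EpiSC replicates 2 and 3, and 232 to 324 lower; the causes were not tested.

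Of 139 called named genes, 128 were called in every alternative and none reversed. Sox2, not called, reversed to -0.026 after rescaling and ranged from -0.11 (without EpiLC replicate 2) to 0.28 with libraries left out. Prkcz, also not called, reversed to -0.057 after rescaling and ranged from -0.10 (without EpiLC replicate 3) to 0.15, with -0.0045 without embryo-derived replicate 2. Among the calls lost in at least 1 alternative were those of Dkk1, Tubb3, Pdk1, Cdkn1b, Amotl2, Prom1, Dhrs3, B2m, Itga6 and H13. With a replicate block 1347 genes were higher and 1207 lower than in EpiLCs, and 248 higher and 287 lower than in ESC-derived 3D EpiSCs, and no call of a named gene changed. Deviations of same-numbered libraries correlated by 0.142, 0.0605 and 0.0433 across genes, and embryo-derived replicate 3 correlated best with EpiLC replicate 2 (0.0517), so the numbers were not taken to pair the libraries. Depth is unknown from TPM, so values near 0 cannot be told from absence.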

Other observations

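Of 151 long intergenic non-coding RNAs tested, 60 were lower (39.7%) and 12 higher (7.95%), while 8.35% of 11026 protein-coding genes were lower and 10.5% higher. Of 1022 processed pseudogenes 131 were lower (12.8%) and 134 higher (13.1%). The difference between these classes was not tested.

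On the X chromosome 510 genes passed the TPM filter, with a median difference of 0.25, 72 above 1 and 65 below -1. Xist, the RNA that coats the inactive X, stood at 1.72, 4.1 and 3.94 TPM in embryo-derived 3D EpiSCs and 2.05, 1.67 and 5.97 TPM in EpiLCs, overlapping between the groups, and did not exceed 0.0113 TPM in ESC-derived 3D EpiSCs.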
